A study of Homo sapiens with 6 samples.

Results

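The genes described here are 49 genes of the replication fork and of nucleotide supply, chosen by symbol from a named list, out of 26255 genes listed in the data. They were fixed by name and not by a measured value, although the list was drawn up with earlier results of these data known. All 49 symbols were found. They were read in 8 role groups: the replicative helicase (12 genes), the origin recognition complex (6), the sliding clamp and its loader (6), the polymerases and primase (9), Okazaki fragment maturation (3), nucleotide synthesis (4), chromatin assembly and copying (5) and fork protection (4).

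The cells were HT29, a long-established human colorectal cancer line, and the groups were YM155 for 24 h and DMSO, the solvent control, with 3 libraries each. YM155 is a drug developed against survivin, an inhibitor of apoptosis. Its dose is not in the labels used here, and the labels do not say whether replicates were separate cultures, so p-values here reflect variation between libraries that could be technical. The titles of the treated samples spell the drug YM115, while their treatment label and the series text give YM155.

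At each fork the MCM2-7 ring, joined by CDC45 and the GINS complex, unwinds DNA ahead of the polymerases. Primase with polymerase alpha lays down primers, the RFC complex loads the PCNA clamp there, and polymerases delta and epsilon extend from it. FEN1, DNA2 and LIG1 process and seal Okazaki fragments, ribonucleotide reductase and the thymidylate enzymes supply deoxynucleotides, and CAF-1, UHRF1 and DNMT1 restore nucleosomes and methylation behind the fork. Many of these genes are known targets of E2F factors and are expressed most in late G1 and S phase.

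Levels are FPKM, the fragments mapped to a gene divided by transcript length and by library size, so they are per transcript length. FPKM summed to between 538478 and 563296 in the DMSO libraries and between 678699 and 696067 in the YM155 libraries. Steps between low values put the depth of the YM155 libraries at 0.56 to 0.66 times that of DMSO replicate 1, against 0.9 to 1 for the other DMSO libraries, so scarce transcripts were measured less precisely with YM155. Library totals are not given. BIRC5, the survivin gene, fell 3.42-fold. Of 10 markers of colorectal epithelium, 8 reached the level needed for testing, and CDX1 and GPA33 stayed under 1 FPKM in every library. The 10 summed to between 4110 and 4304 FPKM with DMSO and between 7272 and 7853 FPKM after YM155, most of it from KRT8 and KRT18. Of the 8 tested, 6 rose and 2 were lower, against 43.6% and 41% of all tested genes. VIL1 fell 1.73-fold, and CDX2, which reached 1 FPKM with DMSO alone, went from 3.20 ± 0.456 to 0.839 ± 0.144 FPKM. CDH17, among the 6, reached 1 FPKM with YM155 alone, going from 0.738 ± 0.0774 to 2.37 ± 0.160 FPKM. CDX2 and CDH17 thus had to differ, and their calls are no evidence. Markers of blood, stromal, endothelial and liver cells, 9 in number, summed to between 0.396 and 0.533 FPKM with DMSO and between 0.277 and 0.325 FPKM after YM155. Among them CD3E, COL1A2, PDGFRB and ALB were at 0 in all 3 YM155 libraries.

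The question was what 24 h of YM155 did to the messenger RNA of the fork. Of the 49 genes, 42 fell, 2 rose and 5 did not pass by limma at an adjusted p under 0.05, adjusted over all 12035 tested genes. Among all tested genes 41% fell and 43.6% rose, so 84.7% passed in either direction. Groups did not overlap for 45 of the 49 genes, against 85.9% of all tested genes, so lack of overlap by itself sets nothing apart. The log2 fold change was -1 or less for 18 of the 49, against 11.8% of all tested genes, where log2 values are log2(FPKM + 1). The median log2 fold change was -0.91 for the 49 genes and 0.02 for all tested genes. Every one of the 49 passed the filter of 1 FPKM in at least 3 of the 6 libraries, but POLE2 and CLSPN passed through the DMSO libraries alone and so had to differ. Without them 40 of 47 fell, 17 of these with a log2 fold change of -1 or less, and the median was -0.89.

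**Figure D1:**
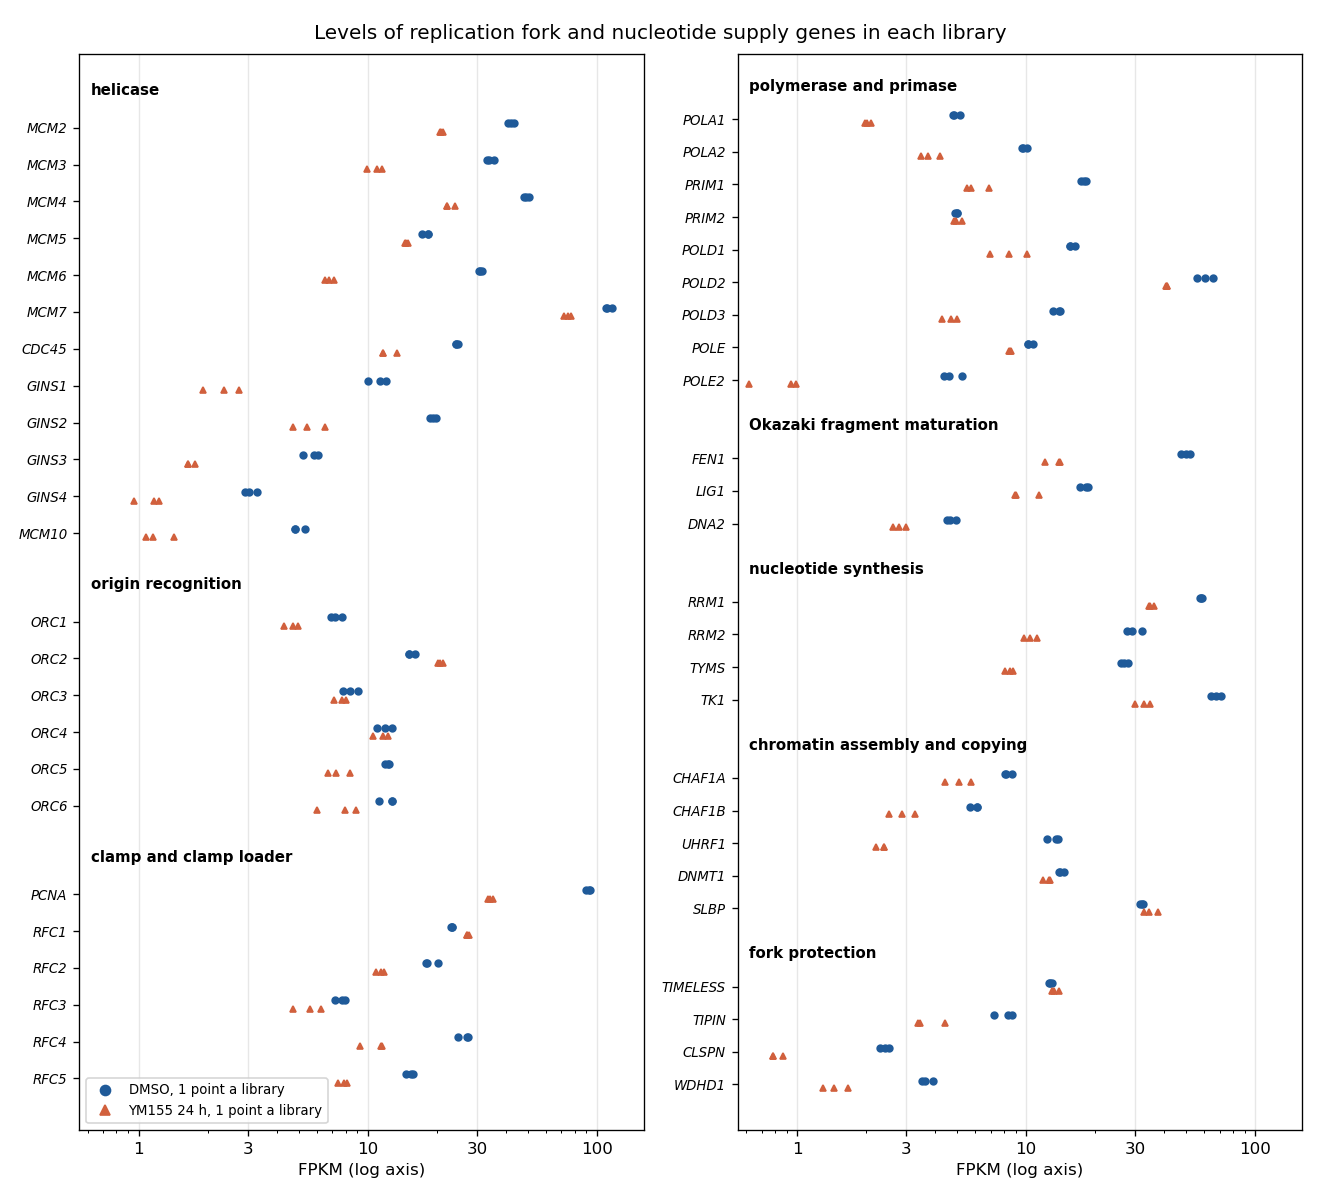
FPKM of each of the 49 genes in every library on a log axis, with circles for DMSO and triangles for YM155, by role group. Triangles lie left of the circles for most genes, overlap them for ORC3, ORC4, PRIM2 and TIMELESS, and lie to the right for ORC2, RFC1 and, narrowly, SLBP.

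The groups differed in how far they fell. Median log2 fold changes were -1.22 in nucleotide synthesis, -1.20 in the helicase, -0.96 in the polymerases and primase, -0.92 in fork protection, -0.82 in Okazaki fragment maturation, -0.79 in the clamp and its loader, -0.62 in chromatin assembly and copying and -0.34 in origin recognition. These medians are descriptions of 3 to 12 genes and were not tested against each other. That of the polymerases and primase includes POLE2, and that of fork protection is set in part by CLSPN. Both genes had to differ, so the places of these groups in the order carry that limit. This order depended on the settings. Relative to the median of all tested genes, Okazaki fragment maturation went from -0.85 to -1.51 when only genes with a mean of at least 5 FPKM were tested, which left out DNA2. Fork protection went from -0.94 to -0.55 with quantile normalization. With a pseudocount of 0.1 the helicase, at -1.55, was below nucleotide synthesis, at -1.3. Scaling the libraries differently moved the median of all tested genes, by -0.23 under upper-quartile scaling, by -0.29 on rescaling to a common sum and by -0.10 with quantile normalization. Of all calls 51.5% were higher with the deposited values, 40.3% when upper-quartile scaled and 36.9% when rescaled to a common sum. Relative to the median of all genes, the median of the 49 was -0.93 with the deposited values.

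**Figure D2:**
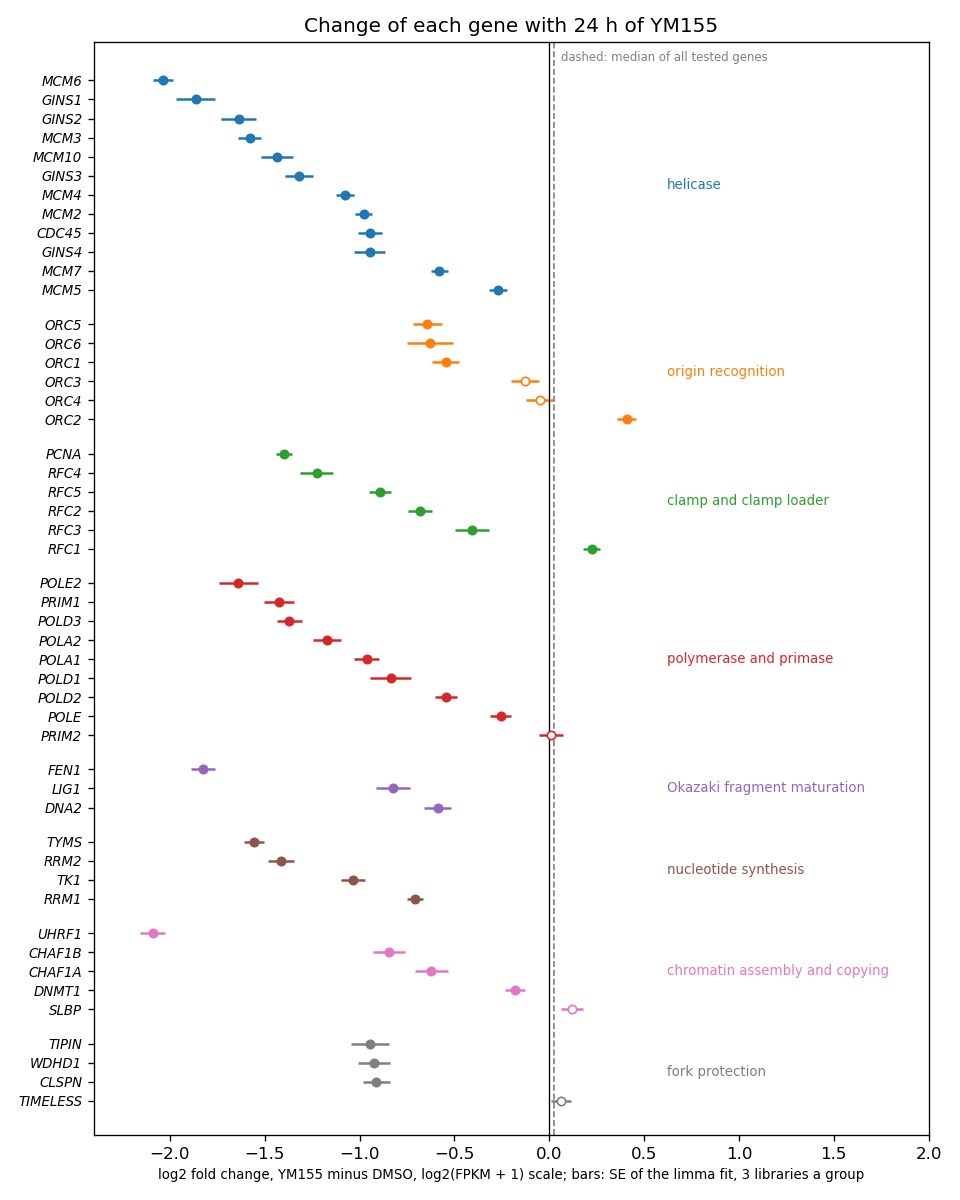
Log2 fold change (YM155 minus DMSO, log2(FPKM + 1) scale) of each gene with its standard error from limma, 3 libraries a group, ordered within role groups, with open symbols for genes that did not pass. The changes run from -2.09 for UHRF1 to 0.41 for ORC2, and each group but nucleotide synthesis, the helicase and Okazaki fragment maturation holds a gene that rose or did not pass.

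All 12 helicase genes fell, with log2 fold changes between -2.04 and -0.27. MCM6, a subunit of the MCM2-7 ring, was at 31.5, 30.6 and 30.99 FPKM in the DMSO libraries and at 7.13, 6.51 and 6.80 FPKM in the YM155 libraries. It fell 4.55-fold (log2 fold change -2.04, SE 0.05, limma adjusted p = 2.4e-09), and it ranked 79th from the largest fall among all tested genes. MCM3 fell 3.17-fold, from 34.2 ± 1.11 to 10.8 ± 0.809 FPKM (SD, n = 3). The other ring subunits fell less: MCM4 2.16-fold, MCM2 2.02-fold, MCM7 1.501-fold and MCM5 1.22-fold.

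The least affected of the ring was MCM5, at 17.3, 18.3 and 18.3 FPKM with DMSO and 14.97, 14.7 and 14.5 FPKM after YM155 (log2 fold change -0.27, SE 0.05, limma adjusted p = 7.1e-04). MCM7, the most abundant subunit, went from 112 ± 3.53 to 74.7 ± 2.54 FPKM. The 6 subunits of the ring sit in it in equal number, but their messages did not fall in proportion. Within a library, the most abundant ring message stood at 5.96 to 6.42 times the scarcest with DMSO and at 10.6 to 11.5 times with YM155. The scarcest was MCM5 with DMSO and MCM6 with YM155.

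The GINS complex, which ties the ring to CDC45, fell further than the ring as a summed level. GINS1 to GINS4 together summed to 40.9, 36.7 and 39.7 FPKM with DMSO and to 11.2, 10.45 and 10.4 FPKM after YM155, 3.66-fold lower, against 1.902-fold for MCM2 to MCM7. GINS1 was at 11.97, 9.999 and 11.3 FPKM with DMSO and 1.91, 2.73 and 2.35 FPKM after YM155, a 4.76-fold fall (log2 fold change -1.86, SE 0.10, limma adjusted p = 2.4e-07). GINS2 fell 3.47-fold, GINS3 3.39-fold and GINS4 2.75-fold. GINS4 was scarce, at 3.07 ± 0.186 FPKM with DMSO and 1.12 ± 0.145 FPKM after YM155. CDC45 fell from 24.4 ± 0.334 to 12.2 ± 1.04 FPKM, and MCM10, which helps to activate the helicase, fell 4.09-fold from 4.995 ± 0.297 FPKM.

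Origin recognition genes, which mark origins before the helicase is loaded, moved least. Of 6, 3 fell, 1 rose and 2 did not pass. ORC1, whose level is known to follow the cell cycle, fell from 7.28 ± 0.387 to 4.67 ± 0.339 FPKM, ORC5 fell 1.63-fold and ORC6 1.602-fold. ORC2 was at 15.1, 15.1 and 16.1 FPKM with DMSO and 20.3, 20.7 and 21.4 FPKM after YM155, higher in every treated library (log2 fold change 0.41, SE 0.05, limma adjusted p = 5.1e-05). Its rise was 0.10 and did not pass after rescaling to a common sum (limma adjusted p = 0.14). ORC3 (8.42 ± 0.639 FPKM with DMSO and 7.615 ± 0.448 FPKM after YM155) and ORC4 (11.9 ± 0.890 and 11.5 ± 0.860 FPKM) did not pass and overlapped between groups, and both passed as lower with upper-quartile, sum and quantile scaling.

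Within the clamp and its loader 5 genes fell and 1 rose. PCNA, the sliding clamp, was at 89.98, 92.5 and 93.5 FPKM with DMSO and 33.5, 35.3 and 34.3 FPKM after YM155, a 2.68-fold fall with little spread in either group. The loader RFC has a large subunit, RFC1, and small subunits RFC2 to RFC5, which are shared with other clamp loaders. RFC4 fell 2.45-fold, RFC5 1.96-fold, RFC2 1.66-fold and RFC3 1.38-fold, whereas RFC1 was at 23.4, 23.4 and 23.1 FPKM with DMSO and 27.2, 27.1 and 27.7 FPKM after YM155 (log2 fold change 0.22, SE 0.04, limma adjusted p = 9.3e-04). The rise of RFC1 depended on scaling and became -0.02, -0.09 and -0.10 when libraries were scaled by upper quartile, sum and quantiles, none of which passed. Relative to RFC4 in the same library, which does not depend on scaling, RFC1 stood at 0.853 to 0.948 with DMSO and 2.35 to 3.01 with YM155. Exons of RFC4 overlap EIF4A2 on the opposite strand, which rose from 185 ± 1.79 to 441 ± 9.85 FPKM. Levels and ratios of RFC4 are uncertain if counting did not use strand.

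Of 9 polymerase and primase genes 8 fell and 1 did not pass. Subunits of one polymerase fell by different amounts. POLE2, the second subunit of polymerase epsilon, was at 5.26, 4.38 and 4.61 FPKM with DMSO and 0.945, 0.990 and 0.618 FPKM after YM155, 5.58-fold lower. As it reached 1 FPKM with DMSO alone, it had to differ, and its call among the 8 is no evidence. POLE, the catalytic subunit, went from 10.4 ± 0.326 to 8.54 ± 0.0890 FPKM, 1.22-fold lower. In polymerase delta the accessory POLD3 fell 2.92-fold, the catalytic POLD1 1.86-fold and POLD2, also accessory, 1.47-fold. Of these 3 genes POLD1 had the widest spread between treated libraries, at 10.1, 8.43 and 6.98 FPKM, all under the DMSO range of 15.6 to 16.3 FPKM.

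Primase is a dimer of PRIM1, which makes the primer, and PRIM2, its large subunit, and these parted. PRIM1 was at 17.4, 18.2 and 17.9 FPKM with DMSO and 5.50, 6.91 and 5.75 FPKM after YM155, a 2.95-fold fall. PRIM2 was at 4.90, 4.98 and 4.99 FPKM with DMSO and 4.82, 4.92 and 5.25 FPKM after YM155, and did not pass (log2 fold change 0.01, SE 0.06, limma adjusted p = 0.89). PRIM2 passed as lower, at -0.20 and -0.26, with upper-quartile and sum scaling, which moved the median of all genes by about as much. Both subunits of polymerase alpha fell, POLA1 2.42-fold and POLA2 2.57-fold.

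The 3 genes of Okazaki fragment maturation fell. FEN1, the flap endonuclease, was at 50.1, 51.8 and 47.6 FPKM with DMSO and 14.02, 13.9 and 12.1 FPKM after YM155, a 3.73-fold fall (log2 fold change -1.82, SE 0.06, limma adjusted p = 1.5e-08). LIG1, the ligase that seals the nick, fell 1.84-fold, and DNA2, a nuclease and helicase for long flaps, fell 1.68-fold from 4.72 ± 0.225 FPKM. Exons of FEN1 overlap TMEM258 on the opposite strand, which was at 506 ± 34.7 FPKM with DMSO and 417 ± 23.8 FPKM after YM155. The level of FEN1 is uncertain if counting did not use strand.

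In nucleotide synthesis all 4 genes fell. TYMS, which makes thymidylate from deoxyuridylate, was at 26.7, 25.8 and 27.9 FPKM with DMSO and 8.52, 8.73 and 8.12 FPKM after YM155, a 3.17-fold fall (log2 fold change -1.56, SE 0.05, limma adjusted p = 1.4e-08). TK1, the salvage kinase for thymidine, fell 2.08-fold from 67.5 ± 3.34 FPKM. TYMS shares transcribed sequence with ENOSF1 on the opposite strand, and ENOSF1 also fell, 2.70-fold. Whether counting used strand is not given in the sources used here, so reads of the pair may not be told apart.

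Ribonucleotide reductase pairs the large subunit RRM1 with the small subunit RRM2, which limits the enzyme in S phase, or with RRM2B, a small subunit known to be induced by p53. RRM2 was at 29.04, 27.5 and 31.97 FPKM with DMSO and 10.4, 9.80 and 11.1 FPKM after YM155, a 2.82-fold fall. RRM1 fell less, 1.65-fold, from 57.9 ± 0.470 to 35.04 ± 0.882 FPKM. RRM2B rose 1.58-fold, from 5.15 ± 0.761 to 8.14 ± 0.568 FPKM (limma adjusted p = 4.4e-04). The ratio of RRM2 to RRM2B in a library was 5.08, 6.41 and 5.87 with DMSO and 1.39, 1.15 and 1.33 with YM155.

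Of 5 genes of chromatin assembly and copying 4 fell and 1 did not pass. UHRF1, which reads hemimethylated DNA behind the fork and recruits DNMT1, was at 12.3, 13.5 and 13.8 FPKM with DMSO and 2.40, 2.39 and 2.202 FPKM after YM155. Its 5.66-fold fall was the largest of the 49 (log2 fold change -2.09, SE 0.07, limma adjusted p = 9.4e-09). DNMT1, the maintenance methyltransferase itself, went from 14.2 ± 0.398 to 12.4 ± 0.457 FPKM (log2 fold change -0.18, SE 0.05, limma adjusted p = 0.012), the smallest of the 42 falls and the one lost at a threshold of 0.01. CHAF1B and CHAF1A, subunits of the CAF-1 histone chaperone, fell 2.06-fold and 1.64-fold.

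SLBP binds the stem-loop of replication-dependent histone messages and is known to be controlled largely at the protein level. It was at 32.5, 31.4 and 32.1 FPKM with DMSO and 34.3, 37.6 and 32.7 FPKM after YM155 and did not pass (log2 fold change 0.12, SE 0.06, limma adjusted p = 0.079). Its direction depended on scaling, with -0.13, -0.20 and -0.25 under upper-quartile, sum and quantile scaling. Beside PCNA in the same library, SLBP stood at 0.339 to 0.361 with DMSO and 0.953 to 1.07 with YM155.

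Among the fork protection genes 3 fell and TIMELESS did not pass. TIMELESS and TIPIN form a pair that travels with the fork. TIMELESS was at 12.7, 13.003 and 12.6 FPKM with DMSO and 13.9, 12.95 and 13.2 FPKM after YM155 (log2 fold change 0.06, SE 0.05, limma adjusted p = 0.30), while TIPIN fell from 8.09 ± 0.747 to 3.74 ± 0.576 FPKM. Under upper-quartile, sum and quantile scaling TIMELESS was at -0.17, -0.24 and -0.14 and passed as lower. CLSPN, the mediator of ATR signalling to CHK1, was 2.96-fold lower, from 2.41 ± 0.109 FPKM, and likewise had to differ, and WDHD1, which links the helicase to polymerase alpha, fell 2.50-fold from 3.69 ± 0.210 FPKM.

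**Figure D3:**
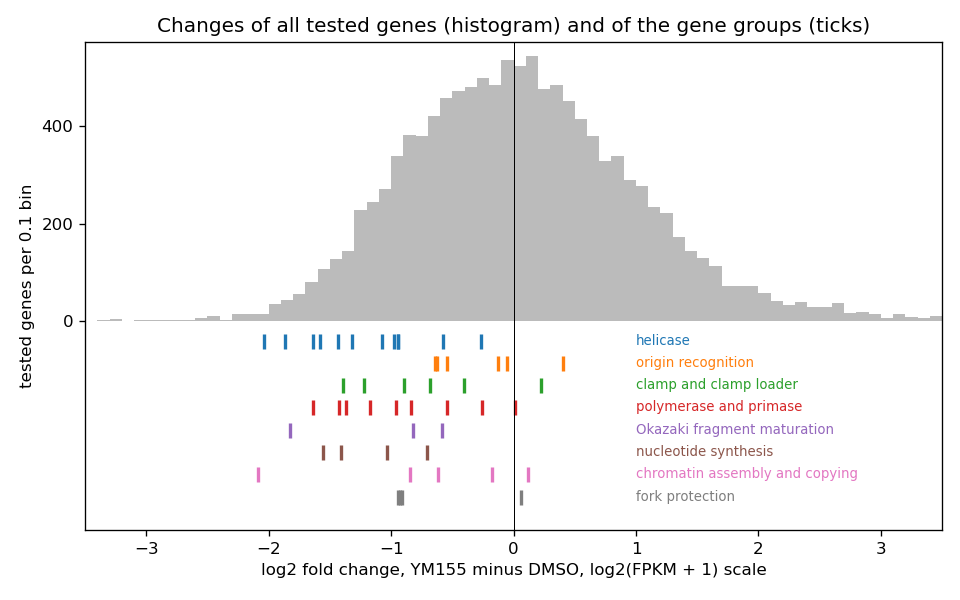
Histogram of the log2 fold change (log2(FPKM + 1) scale) of all 12035 tested genes, drawn between the axis limits, with ticks for the genes of each role group under it. Helicase and nucleotide synthesis ticks all lie below 0, and origin recognition ticks lie nearest to the middle of the histogram.

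To set partners side by side without the choice of scaling, FPKM ratios of 19 gene pairs were taken within each library. Ratios did not overlap between treatments for 15 pairs. The share among other gene pairs was not taken. As 85.9% of all tested genes did not overlap singly, this count by itself sets nothing apart. In an exact two-sided permutation test of the log2(FPKM + 1) ratio, 3 libraries against 3 cannot give a p under 0.10, and no pair can pass after adjustment (lowest adjusted p over the 19 pairs = 0.11). UHRF1 to DNMT1 went from 0.890, 0.926 and 0.983 with DMSO to 0.190, 0.189 and 0.186 with YM155. MCM6 to MCM7 went from 0.283, 0.263 and 0.284 to 0.0925, 0.0868 and 0.0944. PRIM1 to PRIM2 went from 3.56, 3.65 and 3.59 to 1.14, 1.40 and 1.09.

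The same separation was seen for several other partners. POLE to POLE2 went from 1.94 to 2.46 with DMSO to 8.62 to 13.7 with YM155, and TIMELESS to TIPIN from 1.45 to 1.79 to 3.15 to 3.85. POLE2 and CLSPN reached 1 FPKM with DMSO alone and had to differ. The separation of POLE to POLE2 and of CLSPN to TIMELESS, both among the 15 pairs, is therefore no evidence. FEN1 to LIG1 was at 2.62 to 2.91 with DMSO and 1.23 to 1.57 with YM155, and ORC1 to ORC2 at 0.432 to 0.508 and 0.201 to 0.240. Ratios of 4 pairs overlapped between treatments. CDC45 to MCM2 was at 0.579 ± 0.0243 with DMSO and 0.584 ± 0.0532 with YM155, PCNA to RFC4 at 3.49 ± 0.134 and 3.23 ± 0.439, GINS2 to GINS3 at 3.39 ± 0.145 and 3.33 ± 0.632, and POLA1 to POLA2 at 0.502 ± 0.0305 and 0.536 ± 0.0344 (SD, n = 3).

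**Figure D4:**
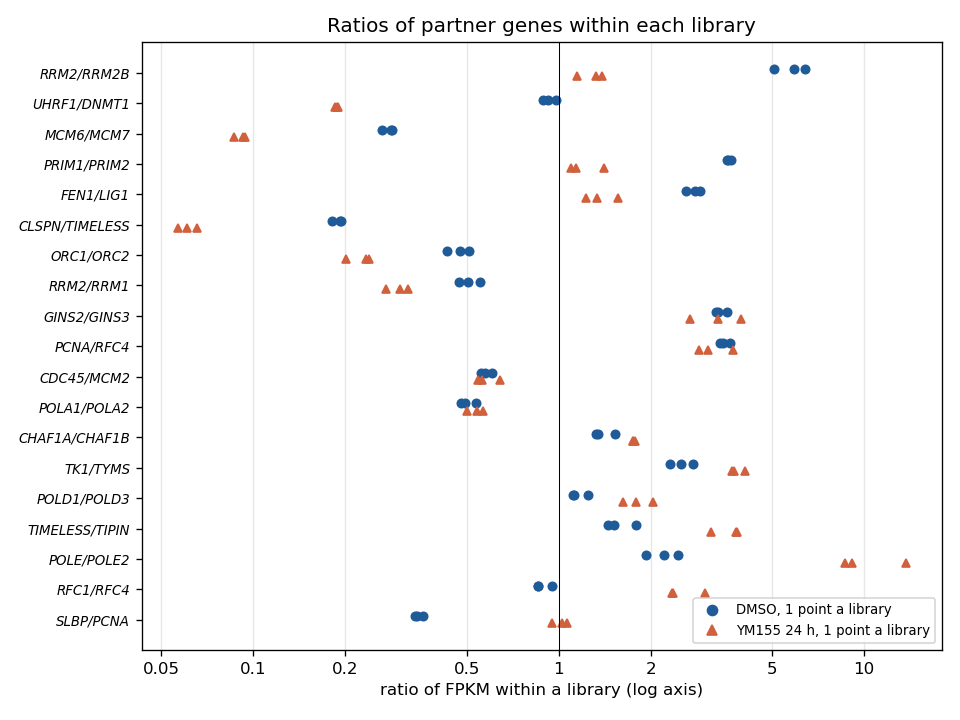
FPKM ratio of 19 gene pairs within each library on a log axis, with circles for DMSO and triangles for YM155, ordered by the change of the ratio. The groups overlap for GINS2/GINS3, PCNA/RFC4, CDC45/MCM2 and POLA1/POLA2 and are apart for the other 15 pairs.

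Promoters of the 49 genes were read for E2F-type sites, since E2F factors are known regulators of many of them. RefSeq promoter windows (GRCh38.p14, 250 bases before to 50 after each listed start) were found for 44 of the 49 genes, and not for MCM4, MCM5, GINS4, POLD3 and DNA2. The letters searched were TTTCCCGC, TTTCGCGC, TTTGCCGC and TTTGGCGC on both strands, overlapping matches included. A window held a match for 20 of the 44 genes (45.5%), against 6.81% of the 8973 tested genes with a window and 3.99% of all 27305 genes with windows. Many of the 49 are known E2F targets, so this higher share says nothing about YM155. By group, matches stood in 7 of 9 helicase genes, 4 of 8 polymerase and primase genes, 2 of 6 clamp and loader genes, 1 of 6 origin recognition genes, 1 of 4 nucleotide synthesis genes, 1 of 2 Okazaki maturation genes, 2 of 5 chromatin genes and 2 of 4 fork protection genes. Of the 37 genes with a window that fell, 19 held a match, and of the other 7, 1 did (ORC3). The 19 include POLE2 and CLSPN, which had to differ. Whether a match bears on a fall was not tested. The letters CCAAT, on both strands, stood in windows of 26 of the 44 genes, against 43.4% of tested genes.

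The 160 bases before the start are shown for 4 genes that fell (MCM6, PCNA, TYMS and POLA2) and for RFC1 and TIMELESS, which did not, 5′ to 3′ on the gene's strand, with E2F-type matches in capitals. MCM6 is at chr2:135876444-135876603 (minus strand), PCNA at chr20:5126623-5126782 (minus, the first of 2 listed starts), TYMS at chr18:657493-657652 (plus), POLA2 at chr11:65261802-65261961 (plus), RFC1 at chr4:39366363-39366522 (minus) and TIMELESS at chr12:56449427-56449586 (minus), all in GRCh38.p14.
MCM6: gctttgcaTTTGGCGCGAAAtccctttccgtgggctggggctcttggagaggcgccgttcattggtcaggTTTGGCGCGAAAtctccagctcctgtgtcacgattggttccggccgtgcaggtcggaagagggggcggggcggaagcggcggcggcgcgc
PCNA: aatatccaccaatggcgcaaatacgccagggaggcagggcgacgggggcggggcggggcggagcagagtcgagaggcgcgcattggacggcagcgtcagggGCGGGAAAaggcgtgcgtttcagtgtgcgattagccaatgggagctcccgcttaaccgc
TYMS: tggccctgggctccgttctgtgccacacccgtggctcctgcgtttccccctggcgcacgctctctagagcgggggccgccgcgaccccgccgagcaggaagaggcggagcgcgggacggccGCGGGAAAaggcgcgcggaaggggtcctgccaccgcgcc
POLA2: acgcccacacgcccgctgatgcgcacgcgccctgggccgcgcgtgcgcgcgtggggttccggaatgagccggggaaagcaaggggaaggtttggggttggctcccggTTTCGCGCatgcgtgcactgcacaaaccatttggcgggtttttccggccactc
RFC1: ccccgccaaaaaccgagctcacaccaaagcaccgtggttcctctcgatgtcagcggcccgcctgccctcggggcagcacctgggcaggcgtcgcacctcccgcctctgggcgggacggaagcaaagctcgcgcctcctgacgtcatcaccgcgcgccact
TIMELESS: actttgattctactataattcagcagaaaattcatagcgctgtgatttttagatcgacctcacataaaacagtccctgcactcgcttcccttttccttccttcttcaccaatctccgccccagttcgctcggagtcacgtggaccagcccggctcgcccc
MCM6 held 4 matches, in overlapping pairs of opposite strand that begin 152 and 148 and again 90 and 86 bases before the start. PCNA, TYMS and POLA2 held 1 each, at 59, 39 and 53 bases before it, and RFC1 and TIMELESS held none in this window. These examples do not stand for the set: in the full windows, 19 of the 37 genes that fell and 1 of the other 7 held a match. A match describes letters and not binding, which was not measured.

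Genes around the same processes that are not among the 49 moved in both directions, and their counts are to be read against the 41% of all tested genes that fell and the 43.6% that rose. Of 22 other fork genes 11 fell and 6 rose (median log2 fold change -0.38), a share of 50% lower. CHTF8 and DSCC1, of the alternative clamp loader for cohesion, fell 3.59-fold and 3.33-fold, but CHTF18, the large subunit of that loader, rose from 8.81 ± 0.426 to 11.4 ± 1.17 FPKM. Among the other fork genes POLD4, the smallest subunit of polymerase delta, rose 3.44-fold, from 45.6 ± 3.65 to 156.7 ± 10.54 FPKM, and TOP1, which relaxes DNA ahead of the fork, rose 2.91-fold. Of 26 other nucleotide genes 15 fell (57.7%) and 8 rose (median -0.29). CTPS2, a CTP synthase, and SHMT1, of folate metabolism, fell 3.16-fold and 2.93-fold, while the salvage kinase DCK rose 2.38-fold and GMPS, which makes GMP, 1.72-fold. Of 10 other genes of chromatin copying 7 fell and 3 rose (median -0.64), with the histone chaperone ASF1B and RBBP4, the third subunit of CAF-1, falling 3.25-fold and 2.67-fold, and USP7, a deubiquitinase, and SSRP1, of the FACT chaperone, rising 1.82-fold and 1.35-fold. The rise of SSRP1 turned to -0.01 with quantile normalization.

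Markers of cycling cells moved with these genes. Of 9 genes of cell cycle context 8 were tested, of which 6 fell and 2 rose, against 41% and 43.6% of all tested genes. The 6 include E2F8, which reached 1 FPKM with DMSO alone and so had to differ. The cyclin genes CCNB1 and CCNA2 fell 2.92-fold and 2.29-fold, E2F7, a repressor of the E2F family, rose 2.08-fold, and CDKN1A, encoding the cell cycle inhibitor p21, rose from 8.57 ± 0.0947 to 67.6 ± 2.66 FPKM. Their part in the falls was not tested, and in bulk RNA fewer cells in S phase and less message per cell cannot be told apart.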

How the data were processed

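Per the labels' protocols, total RNA from column extraction went into stranded mRNA libraries. The authors deposited 1 FPKM value per gene symbol and library. Per the submitters' processing notes, the build was hg19 and the tools named were Cuffdiff, Cufflinks 2.2.1, TopHat2 2.1.1, Bowtie2 2.3.5.1 and SAMtools 1.2. The sources used here do not give their settings, the annotation, the use of strand or any scaling between libraries. In GENCODE release 29, exons of 19 of the 49 genes overlap another gene. For 16 this is a gene on the opposite strand, so their levels are uncertain if strand was not used. FEN1, POLA2, POLD1, PRIM1 and RRM2 overlap a gene on the same strand, which use of strand cannot tell apart.

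The 12035 genes that reached 1 FPKM in 3 or more of the 6 libraries were tested on log2(FPKM + 1) with limma 3.58.1 in R 4.3.3 (lmFit, eBayes with trend, two-sided, no replicate block), with Benjamini-Hochberg adjustment over all of them and a threshold of 0.05. On this scale the change of a low-level gene is understated, and fold values in the text were taken between mean FPKM. The fit was tested on simulated data. Ratios were tested with SciPy 1.17.1. FPKM holds no counts, so no count model was used. Relative depth came from the commonest ratio between libraries of FPKM values under 0.15. Replicates of a group correlated at 0.992 to 0.994 across genes, and none held identical values.

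The 49 genes and the lists of other genes were chosen with earlier results of these data known. All 49 are described, and of each other list the 2 largest falls and rises whose higher group averaged 5 FPKM or more and did not overlap the other, plus RRM2B. BIRC5, ENOSF1, EIF4A2, TMEM258, CHTF18, E2F8 and the markers were named besides. Of these EIF4A2, TMEM258, CHTF18 and E2F8 were named after their values were seen. The sequences printed were chosen after their values were seen. Alternatives were pseudocounts of 0.1 and 0.5, testing without a filter or from a mean of 5 FPKM, scaling by median of ratios, upper quartile, sum or quantiles, eBayes without trend, a replicate block, leaving out each library and a threshold of 0.01.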

Additional observations from a re-analysis of the deposited data

How the results depend on the processing

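With every alternative the 49 genes stayed mostly lower: between 40 and 47 fell, except with a mean of at least 5 FPKM, where 33 of the 39 left fell. Genes that rose numbered 2 with the deposited values, 1 with upper-quartile scaling, 0 after rescaling to a common sum (limma, no gene of the 49 higher, ORC2 at 0.10) and 1 with quantile normalization. With a mean of at least 5 FPKM, 8575 genes were tested, against 12035. Of these 2922 fell, against 4940, and 4419 rose, against 5251. Lower calls thus dropped more than higher calls, which went from 51.5% to 60.2% of all calls. Leaving out each library gave 4887 to 5109 higher and 4150 to 4945 lower among all genes, and 2 to 3 higher and 40 to 42 lower among the 49. Without a DMSO library POLE2 and CLSPN were no longer tested.

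Single genes changed direction as follows. With upper-quartile scaling RFC1 was at -0.02, PRIM2 at -0.20, SLBP at -0.13 and TIMELESS at -0.17. With sum scaling these were at -0.09, -0.26, -0.20 and -0.24. With quantile normalization RFC1 was at -0.10, SLBP at -0.25, TIMELESS at -0.14 and SSRP1 at -0.01. Without YM155 replicate 1 ORC4 was at 0.0055, and PRIM2 ranged from -0.02 without YM155 replicate 3 to 0.03 without YM155 replicate 1. The change, YM155 minus DMSO, of the log2(FPKM + 1) ratio of CDC45 to MCM2 ranged from -0.04 without YM155 replicate 2 to 0.08 without YM155 replicate 1. SLBP passed as higher with median-of-ratios scaling and without YM155 replicate 3 (0.16 in both). Upper-quartile and sum scaling multiply each library by 1 factor, whereas quantile normalization moved genes unequally (SSRP1 from 0.43 to -0.01, PRIM2 from 0.01 to 0.13). The cause of the other changes was not tested.

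Group medians relative to the median of all tested genes kept their sign. Those of the polymerases, fork protection and the 49 include POLE2 or CLSPN, which had to differ, wherever these were tested. With a pseudocount of 0.1 they were -1.55 in the helicase (from -1.22), -0.87 in the clamp and loader (from -0.81), -1.26 in the polymerases (from -0.99), -1.3 in nucleotide synthesis (from -1.25), -1.21 in fork protection (from -0.94) and -1.04 over the 49 (from -0.93). With 0.5 they were -1.35, -1.12, -1.08 and -1.0 in the helicase, polymerases, fork protection and the 49. With a mean of at least 5 FPKM they were -0.53 in origin recognition (from -0.36), -0.97 in the clamp and loader, -1.19 in the polymerases, -1.51 in Okazaki maturation (from -0.85), -1.41 in nucleotide synthesis, -0.63 in fork protection and -1.02 over the 49. Quantile normalization gave -0.29 in origin recognition, -0.91 in the clamp and loader, -0.93 in the polymerases, -1.48 in nucleotide synthesis and -0.55 in fork protection, and sum scaling gave -0.94 in the polymerases and -0.85 in fork protection. Leaving out 1 library gave -1.32 to -1.19 in the helicase, -0.46 to -0.29 in origin recognition, -0.88 to -0.78 in the clamp and loader, -1.32 to -1.21 in nucleotide synthesis, -1.04 to -0.89 in fork protection and -1.0 to -0.88 over the 49. With a mean of at least 5 FPKM some groups lost genes, such as DNA2 from Okazaki maturation and CLSPN and WDHD1 from fork protection. The median of all tested genes also moved, by 0.16. The cause of the other moves was not tested.

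Replicate numbers are shared between treatments in the labels, and deviations of same-numbered libraries correlated at -0.07, -0.15 and -0.12. Those of differently numbered libraries correlated at -0.0032 to 0.124. No shared deviation was seen, but 3 libraries a group cannot settle whether same-numbered libraries share a culture or batch. With a replicate block 5147 genes rose and 4861 fell, and of the 49 genes 2 rose and 42 fell, with no call among the 49 changed. No count model was run, because FPKM holds no counts, and the lower depth with YM155 limits most the levels of POLE2, CLSPN, GINS4 and MCM10.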

Other observations

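Among the 49 genes, how far a gene fell on the log2 scale used for testing was little related to how abundant it was. The log2 level with DMSO and the log2 fold change correlated at -0.11 (Pearson) and -0.14 (Spearman). These values are given as a description, as the 49 genes share libraries and are not replicates. This scale understates the change of low-level genes, so the values cannot show whether fold falls in FPKM were ordered by abundance. Mean levels with DMSO ran from 2.41 FPKM for CLSPN to 112 FPKM for MCM7, with a median of 14.2 FPKM. Of all 12035 tested genes, the 1203 with the lowest log2 fold changes held 16 of the 49. The 16 include POLE2, which had to differ.

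Purine synthesis genes outside the 49 moved in both directions, also within the steps that lead to IMP. PPAT, the first enzyme, rose from 14.5 ± 0.614 to 23.2 ± 1.49 FPKM and ADSS, which leads to AMP, rose from 25.8 ± 1.33 to 41.4 ± 1.49 FPKM, while PAICS fell from 115.8 ± 4.02 to 78.6 ± 2.77 FPKM and ATIC from 81.7 ± 1.84 to 59.3 ± 2.37 FPKM. Of the same pathway GART rose (log2 fold change 0.27), ADSL fell (-0.57) and PFAS did not pass (0.17). DTYMK, the thymidylate kinase, fell 2.56-fold, and DUT, which makes dUMP from dUTP, fell 2.54-fold. CTPS1 was at 22.3 ± 0.646 FPKM with DMSO and 22.3 ± 0.657 FPKM after YM155 and did not pass (limma adjusted p = 0.998). All 3 subunits of RPA, which coats single-stranded DNA at the fork, fell: RPA3 2.65-fold, RPA2 1.81-fold and RPA1 1.66-fold. Within RNase H2, RNASEH2A fell 1.97-fold and RNASEH2B 1.83-fold, while RNASEH2C rose 1.59-fold. These genes were named after their values were seen.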
